A study of Mus musculus with 4 samples.

Results

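P2ry12 macrophages of the mouse nasal mucosa were examined as 1366 of the 72320 cells kept from 4 droplet libraries of CD45+ leukocytes, sequenced as RNA of single cells (79132 cell barcodes were deposited). A cell was a member if its unique molecular identifiers (UMIs, each 1 captured transcript) summed to at least 2 over P2ry12, Crybb1 and Gpr34, to at least 2 over Fcrls, Olfml3 and Sparc and to at least 5 over C1qa, C1qb and C1qc, with 0 UMIs of Cd3e, Cd79a and Cxcr2. Cells meeting the last 2 conditions alone are called C1q macrophages here. There were 9606 of them, so that 8240 other C1q macrophages served as the comparison. The mice were C57BL/6 of 8 weeks and carried no genetic change that the labels name. Each of the 4 groups was 1 library. Vehicle mice had the drug carrier and no allergen, Vehicle-OVA mice had the carrier and ovalbumin (OVA, the allergen of a rhinitis model in which, by the study's methods, mice are sensitised by injection with alum and then challenged through the nose), and Ribavirin and Ribavirin-OVA mice had the antiviral drug ribavirin in place of the carrier, without and with OVA. The dose of ribavirin and the number of mice pooled into a library are not given in the sources used here, and CD45+ cells were taken with magnetic beads per the sample labels but by fluorescence sorting per the series text. With 1 library per group no test between groups was possible, and every interval below is a 95% interval for counting error only.

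P2ry12 encodes an ADP receptor that microglia, the resident macrophages of the brain, use to sense nucleotides released by injured cells. Together with Tmem119, Fcrls, Gpr34 and the zinc finger regulator Sall1 it belongs to the set of genes by which microglia are usually told from blood-derived macrophages, and that set depends on TGF-beta and on signalling through Csf1r. Macrophages of border tissues, such as the meninges, usually express Mrc1, Pf4, Lyve1 and MHC class II genes more strongly than microglia do. A resemblance to microglia below is one of transcripts, and says nothing of where the cells came from.

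The starts of 4 of the genes are shown because the cells were chosen by, or later found to share, these transcripts. The sequences are those of RefSeq (GRCm38.p6), each from 250 bases before to 50 bases after an annotated start, and read 5′ to 3′ on the strand of the gene. Capitals mark the letters GAGGAA, or TTCCTC on the other strand, which form the core of sites of the PU.1 type.
P2ry12 (chr3:59262936-59263235, minus strand): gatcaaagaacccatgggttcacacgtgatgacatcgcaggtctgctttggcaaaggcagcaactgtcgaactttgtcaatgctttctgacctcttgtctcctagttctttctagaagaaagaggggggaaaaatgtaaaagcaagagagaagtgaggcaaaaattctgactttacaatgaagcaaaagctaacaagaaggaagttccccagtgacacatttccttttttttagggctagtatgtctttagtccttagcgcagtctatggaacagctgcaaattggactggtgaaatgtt
Fcrls (chr3:87263475-87263774, minus strand): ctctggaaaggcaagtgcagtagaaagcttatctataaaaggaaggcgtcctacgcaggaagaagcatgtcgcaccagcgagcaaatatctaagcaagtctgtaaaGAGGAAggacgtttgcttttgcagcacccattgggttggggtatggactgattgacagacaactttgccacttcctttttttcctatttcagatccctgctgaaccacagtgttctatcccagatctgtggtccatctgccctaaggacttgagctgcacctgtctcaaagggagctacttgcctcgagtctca
Slco2b1 (chr7:99711291-99711590, minus strand): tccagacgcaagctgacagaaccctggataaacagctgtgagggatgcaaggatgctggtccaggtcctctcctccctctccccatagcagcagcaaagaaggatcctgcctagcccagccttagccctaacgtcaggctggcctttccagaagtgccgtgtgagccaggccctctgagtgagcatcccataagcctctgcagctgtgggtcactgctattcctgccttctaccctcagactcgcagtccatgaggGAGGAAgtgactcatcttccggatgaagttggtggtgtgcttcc
Siglech (chr7:55767934-55768233, plus strand): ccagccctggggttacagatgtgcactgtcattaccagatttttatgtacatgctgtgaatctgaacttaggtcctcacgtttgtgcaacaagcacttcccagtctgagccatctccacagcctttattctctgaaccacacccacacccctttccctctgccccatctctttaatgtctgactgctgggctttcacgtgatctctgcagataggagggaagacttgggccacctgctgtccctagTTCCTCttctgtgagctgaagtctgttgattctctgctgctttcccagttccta
The P2ry12 window holds no match to these letters, whereas the Fcrls and Siglech windows hold 1 each. The Slco2b1 window shown holds the longer run GAGGAAGT, of which GAGGAA is a part, and the other windows of this gene hold GAGGAA alone. Of the 8 marker genes, 6 had a promoter that was scored and 2 of them, Fcrls and Slco2b1, held GAGGAA. Of 12 further microglia genes looked up, 8 had a scored promoter and 4 held it (Cst3, P2ry13, Siglech and Trem2). These counts take a gene as holding the letters if any of its promoters does. Counted by promoter, GAGGAA was in 4 of 8 for the markers and in 4 of 11 for the further genes. Over all 32851 promoters, also counted singly, 28.3% held GAGGAA and 3.2% held GAGGAAGT. Among the genes without a scored promoter were Gpr34, C4b, Tmem119, Sall3 and Selplg. Some genes had no entry in the promoter set used, and not every chromosome was scored. A gene missing here can therefore still have an annotated promoter. A match describes letters and not a bound site.

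The libraries held between 91742940 and 171873110 UMIs over all barcodes deposited. Of their barcodes, 57 to 174 were shared between any 2 libraries, and none of the shared ones was a member in both. Members were as deep as the other C1q macrophages without OVA, with median UMIs of 9642 against 9776 in Vehicle and 10086 against 9993 in Ribavirin. With OVA they were deeper, with 16056 against 9496 in Vehicle-OVA and 18264 against 8686 in Ribavirin-OVA. Doublet scores marked 2.08%, 1.67%, 2.58% and 0% of the members, in the order Vehicle, Vehicle-OVA, Ribavirin and Ribavirin-OVA, which is the order of all values given by library below. The marked shares of all cells, 6.07%, 1.86%, 4.10% and 0.987%, lay below the expected shares of 11.3%, 7.66%, 8.56% and 4.12%. Some doublets were therefore probably left unmarked.

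The members as a whole made up a smaller share of the OVA libraries, which under ribavirin did not hold for the cells with the highest marker sums. They numbered 625 in Vehicle, 120 in Vehicle-OVA, 466 in Ribavirin and 155 in Ribavirin-OVA, which was 2.43% (interval 2.24 to 2.62), 0.686% (0.569 to 0.819), 2.30% (2.10 to 2.51) and 1.76% (1.49 to 2.05) of the cells kept. As a share of C1q macrophages, they were 16.2% (15.1 to 17.4), 7.75% (6.47 to 9.20), 16.5% (15.2 to 17.9) and 11.2% (9.56 to 12.9). The ratio of shares of C1q macrophages, with OVA over without, was 0.478 (0.390 to 0.581) under the carrier and 0.676 (0.560 to 0.812) under ribavirin. Of all cells kept, the same ratios were 0.282 (0.230 to 0.344) and 0.765 (0.634 to 0.919). In the core described below, with both marker sums at least 5, they were 0.259 (0.183 to 0.359) of all cells and 0.438 (0.309 to 0.608) of C1q macrophages under the carrier. Under ribavirin the core ratios were 0.997 (0.728 to 1.35) and 0.881 (0.643 to 1.20), with intervals that span 1. Core cells were deeper with OVA, with median UMIs of 13171 against 8834 under the carrier and 18200 against 9271 under ribavirin. Deeper cells reach a sum of 5 more easily, the core was not redrawn from thinned cells, and the part of depth was not tested. Whether the pairs differ from each other could not be tested with 1 library a group.

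**Figure D1:**
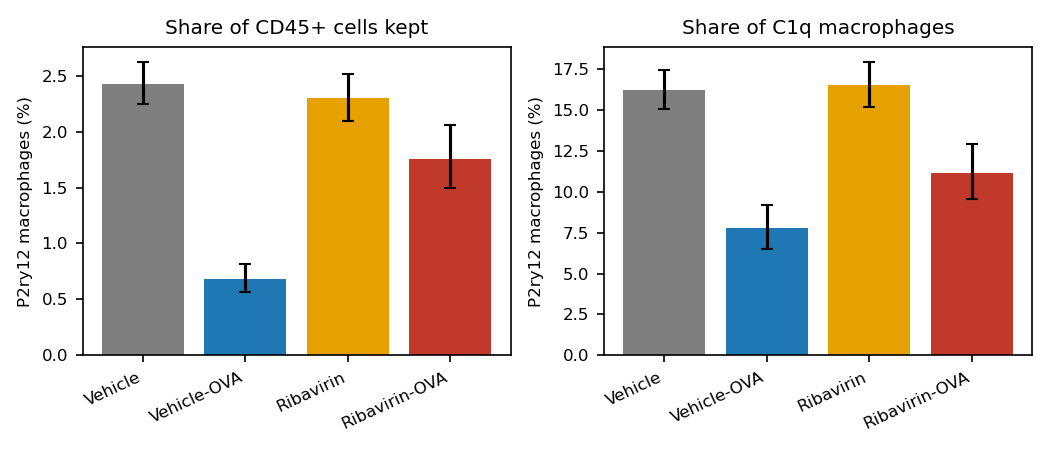
Share of P2ry12 macrophages in each of the 4 libraries, in percent of all cells kept and in percent of C1q macrophages, with 95% exact binomial intervals that cover counting error only. The Vehicle and Ribavirin libraries sit at 16.2% and 16.5% of C1q macrophages, and the OVA libraries at 7.75% and 11.2%.

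Ribavirin without OVA left the share close to that of Vehicle in these libraries, with a ratio of 1.02 (0.901 to 1.15) among C1q macrophages and 0.946 (0.837 to 1.07) among all cells. With OVA the share under ribavirin was 1.44 times (1.13 to 1.84) that under the carrier among C1q macrophages and 2.56 times (2.01 to 3.28) among all cells. Both denominators are given because the other cells of the libraries also differ in number. When every cell was thinned to 2000 UMIs, so that the deeper members of the OVA libraries no longer met the rule more easily, the Vehicle-OVA share was 0.194 times that of Vehicle among all cells and 0.355 times among C1q macrophages. Under ribavirin, thinning gave 0.711 (0.428 to 1.14) and 0.655 (0.394 to 1.05), from 85 and 23 members, with intervals that span 1.

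The rule sets a threshold in a graded population. The sum over P2ry12, Crybb1 and Gpr34 had a median of 4, 4, 3 and 5 UMIs in members, and the sum over Fcrls, Olfml3 and Sparc one of 7, 6, 6 and 6. Graded by the smaller of these sums, 190, 47, 184 and 42 members stood at the edge (a sum of exactly 2), 191, 30, 139 and 51 in the middle (3 to 4) and 244, 43, 143 and 62 in a core (at least 5). A further 440, 101, 278 and 107 C1q macrophages lay just outside with a smaller sum of 1. These grades were chosen after values had been seen. Since they are cut from the genes of the rule, P2ry12 itself is given as a description only. It stood at 93.6, 96.4, 84.6 and 87.4 CPM (UMIs of the gene scaled to a fixed total over the summed cells of a library) at the edge and at 671, 516, 549 and 312 CPM in the core. Sparc, which encodes a secreted matrix protein, went from 23.9, 8.88, 15.2 and 2.50 CPM at the edge to 992, 751, 704 and 550 CPM in the core. In Ribavirin-OVA 1 cell, which also held most of the Col1a1 UMIs, supplied 187 of the 708 Sparc UMIs of members.

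All 8 markers were detected in members of every library, but few cells held all of them. A member held a median of 5, 5, 5 and 4 of the 8, and 29, 10, 23 and 12 members held all 8. Gpr34, a receptor for lysophosphatidylserine, was seen in 89.1%, 74.2%, 83.9% and 81.9% of members, and Crybb1, a crystallin gene also used as a microglia marker, in 29.4%, 28.3%, 18.2% and 17.4%. The markers outside the rule were Slco2b1, an organic anion transporter seen in 47.7% to 64.0% of members, and the complement gene C4b, seen in 47.2%, 51.7%, 44.2% and 51.6%. T cells, B cells and neutrophils, here and below, were taken only from cells without any UMI of C1qa, C1qb or C1qc. Cells of these types that held such macrophage transcripts are therefore not counted. In T cells, at median depths of 4301 to 5551 UMIs, Slco2b1 was seen in 0.120% to 0.639% of cells and C4b in 0.361% to 0.472%. In the other C1q macrophages Slco2b1 was seen in 4.48% to 13.2% and C4b in 10.9% to 13.4%. Thinned to 2000 UMIs, members held Slco2b1 in 18.5% to 28.7% of cells, against 1.28% to 4.67% of the other C1q macrophages. C4b was then in 25.1% to 29.4% against 4.05% to 6.63%. P2ry12 alone did not mark the cells, being seen in 13.7%, 8.19%, 10.5% and 14.8% of neutrophils. After thinning to 2000 UMIs, P2ry12 was in 9.68%, 4.91%, 6.89% and 9.18% of neutrophils and in 4.81%, 5.22%, 5.04% and 5.80% of the other C1q macrophages, against 37.7%, 34.0%, 35.5% and 29.6% of members. P2ry12, Gpr34 and Crybb1 chose the members, so their values in members, and any gap to the other cells, are a description only. The pair of sums was stricter. Among these T cells, B cells and neutrophils without C1q UMIs, only 1 of 2332 T cells in Ribavirin and 1 of 1079 neutrophils in Ribavirin-OVA met both.

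Genes that the rule did not use separated the core from the edge. Sall1 stood at 0.509, 2.54, 0.920 and 1.25 CPM at the edge and at 107, 208, 94.8 and 81.1 CPM in the core, where 45.5%, 67.4%, 38.5% and 45.2% of cells held a UMI against 0.526%, 2.13%, 0.543% and 2.38% at the edge. The core was above the edge in each library, and the ranges did not overlap. Siglech, a sialic acid binding lectin shared by microglia and plasmacytoid dendritic cells, stood at 11.2, 39.3, 44.6 and 2.50 CPM at the edge and at 429, 276, 355 and 137 CPM in the core. The adhesion receptor gene Adgrg1 stood at 6.61, 2.54, 4.14 and 7.49 CPM at the edge against 121, 150, 134 and 98.7 CPM in the core. The edge cells were therefore low in Sall1, Siglech and Adgrg1, and the microglia-like name rests on the core rather than on every cell that the rule takes. The core held border macrophage genes as well. In Vehicle, Vehicle-OVA and Ribavirin its Mrc1 stood at 496, 742 and 497 CPM and its Pf4 at 417, 241 and 418 CPM. C1q macrophages with both sums at most 1 stood at 136, 1200 and 141 CPM of Mrc1 and 87.5, 214 and 90.4 CPM of Pf4. Fewer core than edge cells held Mrc1, 44.3%, 46.5% and 51.0% against 75.3%, 85.1% and 76.6%.

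**Figure D2:**
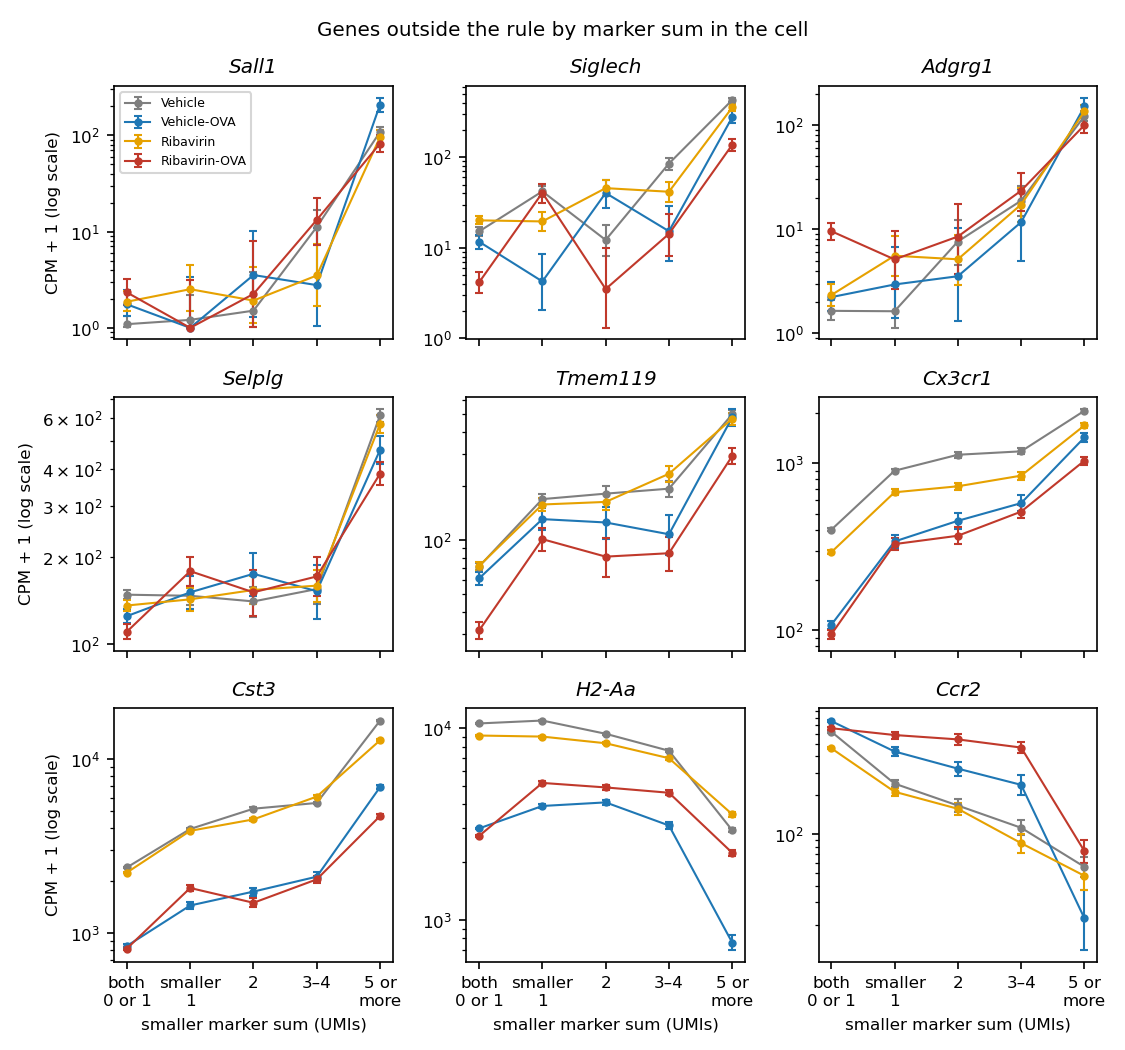
Levels of 9 genes that the rule did not use, as CPM + 1 on a log axis, by the smaller of the marker sums, 1 line per library with 95% counting intervals. Sall1 climbs from 0.509 to 2.54 CPM at the edge to 81.1 to 208 CPM in the core, whereas Ccr2 goes down.

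Other microglia genes were graded rather than on or off. Selplg, the P-selectin ligand gene, stood at 139, 174, 153 and 150 CPM at the edge and 613, 466, 572 and 385 CPM in the core. Tmem119 stood at 180, 124, 162 and 79.9 CPM at the edge and 499, 480, 471 and 292 CPM in the core. Cx3cr1, the fractalkine receptor, stood at 1124, 451, 727 and 367 CPM and then at 2062, 1426, 1684 and 1036 CPM. For all 3 genes the edge already held transcripts, and the core held more in each library. Ccr2, the receptor by which monocytes follow Ccl2, ran the other way, from 621, 750, 462 and 660 CPM in C1q macrophages with both sums at most 1 to 55.0, 21.4, 46.7 and 73.1 CPM in the core.

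Against the rest of the members, the core was at least 2-fold higher in all 4 libraries for 146 of 11511 genes (1.27%) and at least 2-fold lower for 26 (0.226%), a comparison whose groups are cut from the rule's own genes. Of 25 microglia genes listed outside the rule, 24 had enough UMIs, of which 15 were higher and 0 lower, with medians of 1.55, 1.65, 1.38 and 1.61 on the log2 scale. The 15 included Tmem119, Sall1, Sall3, Siglech, P2ry13, Selplg, Slc2a5 and Cst3, and also the marker Slco2b1. Of 8 MHC class II genes 0 were higher and 2, H2-Aa and H2-Eb1, were lower. H2-Aa stood at 2927, 759, 3547 and 2233 CPM in the core against 9329, 4093, 8325 and 4898 CPM at the edge. Of 16 border macrophage genes none was 2-fold apart in every library. Beyond the lists, the genes with the most even gap, picked after their values were seen, were Thrsp, a regulator of lipid synthesis genes (smallest log2 difference 3.50), Mlxipl, a glucose-responsive transcription factor (3.28), Cd34 (3.16), Lrrc3 (3.04) and Slc1a3, a glutamate transporter (2.82). At the other end stood Gpr141 (-1.77), Sirpb1a (-1.38) and Plbd1 (-1.33), followed by the monocyte receptor gene Ccr2 (-1.32).

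The core cells also lay together when the genes of the rule were left out. Among C1q macrophages of 1 library, 81.6%, 80.3%, 82.3% and 74.2% of the 15 nearest neighbours of a core cell were members, where members made up 16.2%, 7.75%, 16.5% and 11.2% of the cells. The middle cells had 52.1%, 32.0%, 53.3% and 43.7% and the edge cells 37.6%, 22.4%, 36.9% and 27.1%. Cells just outside, which were no members, had 27.1%, 17.2%, 29.3% and 19.1%, not far under the edge cells. Without the 25 microglia genes as well, the core cells still had 81.0%, 79.2%, 81.6% and 74.0%. The measure is a description of distances within a library, and cells of a library are not replicates.

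**Figure D3:**
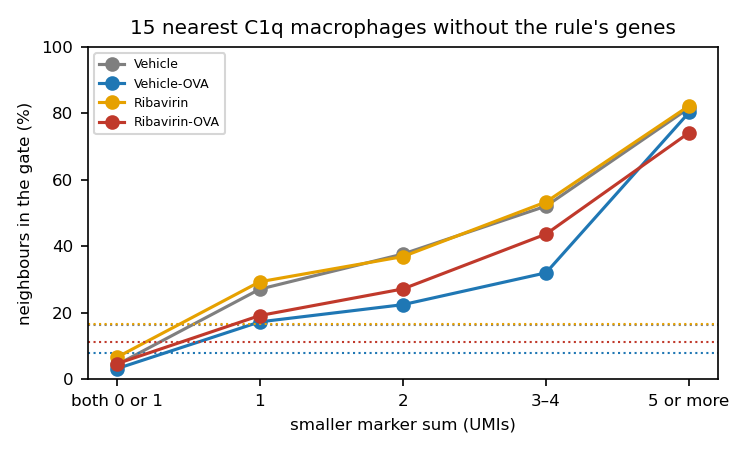
Mean share of members among the 15 nearest C1q macrophages of the same library, in percent, by the smaller marker sum, with genes of the rule left out (the gate on the axis is the set of members). The core lies at 74.2% to 82.3% in the 4 libraries and the edge at 22.4% to 37.6%, and dotted lines mark the share of members in each library.

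Compared with the other C1q macrophages, the members held more of the microglia genes in every library. A gene is counted below where its CPM + 1 was at least 2-fold apart in the same direction in all 4 libraries, which held for 203 of 14415 genes upwards (1.41%) and for 93 downwards (0.645%). Of the 24 measured microglia genes 18 were higher and 0 lower, with medians of 1.89, 2.02, 1.75 and 1.96 on the log2 scale where the median over all genes lay at 0.0637, -0.0312, 0.0598 and 0.0222. Those 18 include the markers Slco2b1 and C4b, which were set for these cells beforehand and whose higher values are therefore a description only.

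Among the regulators, Sall1 stood at 42.9, 69.3, 27.0 and 37.7 CPM in members and 0.187, 0.867, 0.874 and 1.07 CPM in the other cells. Its relative Sall3 stood at 18.3, 28.9, 16.4 and 10.6 CPM against at most 0.114 CPM in any library, where few UMIs lie behind the comparison. Mef2c, a transcription factor of microglia and other macrophages, stood at 356, 238, 284 and 196 CPM against 109, 55.8, 89.3 and 67.7 CPM. Bhlhe41, a repressor known from brain and alveolar macrophages, stood at 40.1, 42.9, 29.3 and 34.4 CPM against 5.00, 3.47, 5.17 and 5.69 CPM. Of 23 listed lineage regulators and receptors these last 2 alone were higher and none was lower. Spi1, which encodes PU.1, did not reach 2-fold in any library, with 321, 290, 290 and 260 CPM against 382, 318, 332 and 229 CPM. Csf1r, the receptor that keeps macrophages alive, passed 2-fold in Ribavirin-OVA alone, with 1765, 1532, 1551 and 1550 CPM against 895, 816, 825 and 756 CPM.

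Trem2, a lipid-sensing receptor of microglia, stood at 850, 595, 764 and 603 CPM against 263, 213, 235 and 214 CPM. Cx3cr1 stood at 1486, 805, 1023 and 689 CPM against 526, 142, 375 and 139 CPM. Both were above the other cells in all 4 libraries without overlap. P2ry13, a further ADP receptor whose gene neighbours P2ry12, stood at 87.9, 69.3, 51.9 and 40.3 CPM against 17.5, 18.2, 14.8 and 10.7 CPM, the only gene of 4 measured relatives of P2ry12 to be higher. Gpr171, of the same receptor group, had lower values in members, at 12.7, 17.9, 16.6 and 15.5 CPM against 44.7, 39.0, 49.3 and 30.3 CPM, short of 2-fold in Ribavirin-OVA alone. Cst3, which encodes the protease inhibitor cystatin C, was among the most abundant genes at 9493, 3522, 7236 and 2991 CPM against 2772, 968, 2513 and 1010 CPM.

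**Figure D4:**
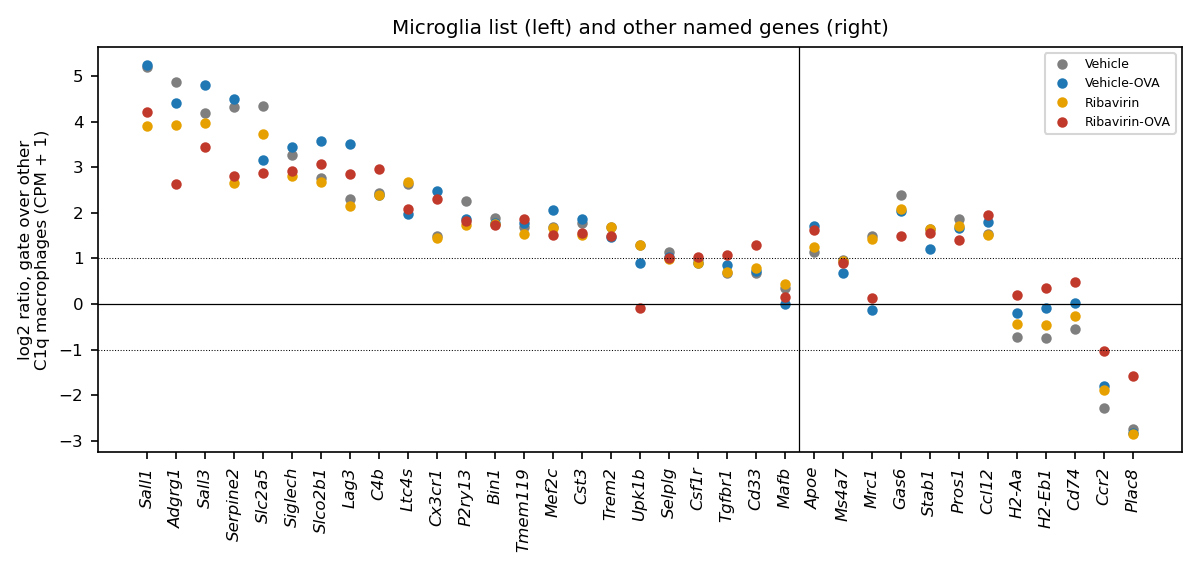
Log2 ratio of CPM + 1, P2ry12 macrophages over the other C1q macrophages, for 23 microglia genes and 12 further genes, 1 point per library, with a line at 0 and dotted lines at a 2-fold difference (the gate on the axis is the set of members). All 4 points of Sall1 lie at 3.90 or above and those of Tmem119 between 1.54 and 1.88, whereas Mrc1 lies between -0.13 and 1.50.

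Genes for taking up dying cells were in part higher. Of 18 such genes measured, 4 were higher and 0 lower. Gas6, a bridging protein between exposed phosphatidylserine and its receptors, stood at 129, 170, 97.5 and 162 CPM against 23.9, 40.8, 22.2 and 56.6 CPM. Pros1, another bridging protein, stood at 58.6, 81.3, 49.2 and 79.6 CPM against 15.3, 25.0, 14.2 and 29.6 CPM. Stab1, a scavenger receptor, and the integrin gene Itgb5 made up the rest, Stab1 at 455, 429, 443 and 445 CPM against 145, 186, 140 and 150 CPM. Of the complement genes C4b was higher, at 259, 245, 221 and 235 CPM against 46.8, 45.8, 41.2 and 29.3 CPM. Of 16 genes of the TGF-beta pathway only the receptor gene Tgfbr2 was, at 259, 214, 250 and 202 CPM against 123, 78.1, 107 and 79.9 CPM. Ccl12, a monocyte-attracting chemokine, was the only higher gene of 22 chemokines and cytokines, at 1162, 395, 639 and 270 CPM against 397, 113, 221 and 69.3 CPM. Of 16 measured genes that microglia raise around damage, only Apoe, a lipid carrier, was higher, by 1.15, 1.71, 1.24 and 1.62 on the log2 scale.

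Of 17 border macrophage genes only Gas6 and Stab1 were higher in every library, with list medians of 1.50, 0, 0.69 and 0.42 on the log2 scale, so that in Vehicle this list stood near the microglia list at 1.89. Mrc1, a mannose receptor, stood at 574, 1165, 495 and 1239 CPM in members against 202, 1271, 184 and 1130 CPM in the other cells, above them without OVA and level with them with OVA. Cd163, a haemoglobin scavenger receptor, stood at 70.8, 143, 45.5 and 211 CPM against 12.8, 204, 7.68 and 191 CPM. In both genes the gap between the sets was seen without OVA and not with it. Pf4 stood at 321, 577 and 417 CPM in the edge, middle and core members of Vehicle. The other C1q macrophages of Vehicle held 87.5 CPM with both sums at most 1 and 277 CPM with 1 sum at least 2. In Vehicle-OVA the same grades of members held 502, 512 and 241 CPM of Pf4, against 214 and 419 CPM. Lyve1 stood at 34.0, 2.99, 2.89 and 1.32 CPM in members. In Vehicle it stood at 18.8, 47.2 and 35.8 CPM in the edge, middle and core members, where at most 4.71% of cells held it. The other C1q macrophages of Vehicle stood lower, at 1.57 CPM with both sums at most 1 and 8.58 CPM with 1 sum at least 2. No gene of the lists for MHC class II (8 measured), interferon response (20), dissociation stress (20) or cell cycle (15) was 2-fold apart in every library.

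Markers of other cell types were called in 5 lists. Of 9 monocyte markers 2 were lower, with list medians of -1.39, -1.80, -2.12 and -0.82 on the log2 scale, Ccr2 at 108, 200.4, 104 and 325 CPM against 526, 700, 387 and 668 CPM and Plac8 at 114, 50.9, 85.6 and 57.8 CPM against 762, 367, 622 and 174 CPM. The summed level of 8 epithelial markers was 42.6, 41.4, 198 and 291 CPM in members against 259, 113, 901 and 2181 CPM, with medians of -1.88, -1.26, -0.96 and -2.60 and Epcam lower. Of 9 dendritic cell markers Siglech and Fscn1 were higher, and Siglech also stands in the microglia list. Of 7 glia markers Fabp7 and S100b were higher, at no more than 27.8 and 8.59 CPM in any library. None of the T and NK cell (7 measured), B cell (6), neutrophil (7), fibroblast (8), endothelial (4) or olfactory neuron (8) markers, nor of the 7 genes of Cxcl13 macrophages, was 2-fold apart in every library. Of 6 osteoclast-like markers Dcstamp was lower, with medians of -2.06, -1.23, -1.49 and -0.70. The summed fibroblast markers stood at 4.18, 1.99, 11.6 and 379.5 CPM in members against 11.5, 2.34, 18.5 and 25.0 CPM, and in Ribavirin-OVA 1 member held 354 of 359 Col1a1 UMIs. The part of these markers in the comparison was not tested.

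By a rule on the smallest difference over the 4 libraries, the 12 highest genes outside the rule's genes were Sall1, Sall3, Nav3, Adamts1, Npnt, Slc2a5, Col27a1, Cd34, Siglech, Lrrc3, Mlxipl and Slco2b1. Adamts1 changed sign at a mitochondrial limit of 5%. Nav3, a microtubule-associated protein gene, stood at 40.1, 33.4, 21.2 and 26.1 CPM against 0.528, 0.534, 1.29 and 0.469 CPM. Slc2a5, a fructose transporter, stood at 20.7, 8.48, 14.3 and 9.25 CPM against at most 0.402 CPM. The 12 lowest were 2310057J18Rik, Mmp12, BC051076, Wfdc18, Inhba, Klk14, Gm15056, Ccl17, AA467197, Sftpd, Sdc1 and Ltf. Klk14, Sftpd and Wfdc18 changed sign in cells of 5000 to 15000 UMIs, and Gm15056, Mmp12 and Sdc1 did when comparison cells holding Arg1, Ccl24 or Retnla were left out. Of these 12, 2310057J18Rik had 98.9% of its comparison UMIs in Vehicle in 1 cell, so that such gland-type transcripts describe a few comparison cells. Mmp12, a macrophage elastase, was spread more widely and stood at 2.25, 50.4, 1.35 and 12.6 CPM in members against 24.5, 528, 30.5 and 402 CPM. Ccl17, a chemokine for type 2 T cells and the only gene of 12 alternative activation genes to be lower, stood at 4.98, 0, 5.59 and 1.98 CPM against 57.5, 7.27, 40.1 and 12.8 CPM. The members thus held less Mmp12 and Ccl17 in each library. With comparison cells holding Arg1, Ccl24 or Retnla left out, 190 genes were 2-fold apart in place of 296, and Mmp12 lost its lower value, with a difference of 0.16.

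With OVA the members held transcripts of alternatively activated macrophages. Between the OVA and non-OVA libraries 352 of 11520 genes (3.06%) were at least 2-fold higher in both pairs and 176 (1.53%) lower, with all-gene medians of 0.144 and 0.174 on the log2 scale. With these medians set to 0, the counts became 233 higher and 270 lower, so that the balance of directions depends on the scaling. Of 12 alternative activation genes 8 rose and 1 fell, with medians of 2.74 and 2.87.

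Arg1, the arginase by which such macrophages consume arginine, stood at 4.34 CPM in Vehicle, 1362 in Vehicle-OVA, 5.59 in Ribavirin and 1210 in Ribavirin-OVA. Ccl24, an eosinophil-attracting chemokine, stood at 8.83, 613, 8.87 and 761 CPM. Both were high in each OVA library and low in each library without it. Fn1, which encodes fibronectin, stood at 37.1, 1377, 28.9 and 1150 CPM, and Chil3, a chitinase-like lectin, at 6.10, 219, 3.47 and 867 CPM. Retnla, a secreted product of interleukin-4 stimulated macrophages, had 0 UMIs in Vehicle and Ribavirin and stood at 523 and 1532 CPM with OVA, where 46.0% and 19.0% of its UMIs came from 1 cell. Atp6v0d2, a proton pump subunit, stood at 0.161, 80.3, 0.386 and 92.1 CPM. The 12 genes with the largest even rise were Retnla, Arg1, Atp6v0d2, Slc7a2, Ccl24, Rnase2a, Timp1, Fn1, Chil3, F7, Emp1 and Spp1. Of these Slc7a2, an arginine transporter, stood at 0.803, 117, 1.35 and 243 CPM.

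Genes of damage-associated microglia rose in part. Of 16 measured, 8 rose (Ctsb, Fabp5, Gpnmb, Igf1, Itgax, Lgals3, Lpl and Spp1) and 1, Apoe, fell, with medians of 0.904 and 1.23. Spp1, which encodes osteopontin, stood at 72.3, 2136, 53.6 and 1305 CPM. Apoe stood at 55790, 25850, 54370 and 23510 CPM and remained one of the most abundant transcripts. Of 6 osteoclast-like markers 3 rose, namely Acp5, Atp6v0d2 and Ctsk. Of the 24 microglia genes 0 rose and only Cst3 fell by 2-fold in both pairs, with medians of -0.265 and -0.213. C4b stood at 259, 245, 221 and 235 CPM and differed by -0.08 and 0.08 on the log2 scale.

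Some antigen presentation and chemokine genes fell. Of 8 MHC class II genes H2-Ab1 and H2-Eb1 fell, H2-Eb1 from 5879 to 1531 CPM and from 6033 to 2167 CPM. Of 22 chemokines and cytokines 3 rose (Ccl6, Ccl9 and Il10) and 4 fell (Ccl2, Ccl7, Ccl12 and Cxcl13). Ccl2 stood at 539, 142, 541 and 235 CPM. Cxcl13, the B cell attracting chemokine, stood at 226, 4.99, 158 and 17.8 CPM but came from few cells, at most 7.85% in any grade of members. Mrc1 rose from 574 to 1165 CPM and from 495 to 1239 CPM, with Ednrb and Siglec1 the other border genes to rise and Cd209f the only one to fall. Of the cell cycle genes Cdk1 and Top2a fell, Top2a from 36.5 to 9.97 CPM and from 22.2 to 8.59 CPM.

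The 12 lowest genes held several secretory transcripts, Lcn11, Obp1a, Obp1b, Mup4 and 5430402E10Rik among them, with Hist1h1b, Gm14744, Gm26522, Cxcl13, Gm6619, Gzma and Hpgd. Obp1a, an odorant-binding protein gene of nasal glands, stood at 146, 11.5, 4004 and 224 CPM in members and at 1326 CPM in T cells of the Ribavirin library, where 88.4% of T cells held a UMI. In that library Obp1a was thus not limited to macrophages. Hpgd, a prostaglandin-degrading enzyme, stood at 127, 21.4, 136 and 21.7 CPM in the core of the members described above. The monocyte receptor Ccr2 in members, at 108, 200.4, 104 and 325 CPM, and the members' depth moved with these results, and their part in them was not tested.

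In the core the same comparison counted 229 of 9965 genes higher (2.30%) and 132 lower (1.32%), with all-gene medians of 0.0751 and 0.104. Of 11 alternative activation genes 6 rose (Arg1, Ccl24, Chil3, Fn1, Pdcd1lg2 and Retnla), and of 16 damage-associated genes the same 8 rose as in all members. Arg1 stood at 0.437 CPM, from 1 UMI, in the Vehicle core and at 402 CPM in Vehicle-OVA, where 32.6% of core cells held it. Under ribavirin it stood at 4.95 CPM without OVA, from 7 UMIs in 1.40% of core cells. In Ribavirin-OVA it stood at 732 CPM, with 53.2% of core cells holding it, a 148-fold difference (71.4 to 369). That interval takes UMIs of the same cell as independent. Arg1 was less abundant in the core than in the rest of the members, at 1827 and 1544 CPM with OVA, or in the other C1q macrophages, at 3639 and 2639 CPM. T cells without C1q UMIs, which should lack it, stood at 83.3 and 32.7 CPM with OVA. After thinning to 2000 UMIs, 16.2% and 31.0% of core cells held Arg1 in the OVA libraries against 4.11% and 4.31% of T cells.

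Several of these values rested on few core cells. For Ccl24, which stood at 6.55, 487, 7.08 and 159 CPM in the core, 68.0% of the Vehicle-OVA UMIs came from 1 cell. For Retnla, at 121 and 348 CPM with OVA and 0 UMIs without, 84.8% and 56.1% did. Against a floor of 3 UMIs over the core of the library without OVA, Retnla was at least 92.1-fold and 164-fold higher. For Gpnmb, a lysosomal glycoprotein of lipid-laden macrophages, 98.8% of the Vehicle-OVA core UMIs came from 1 cell. Fn1 was spread more evenly, at 46.7, 605, 17.0 and 853 CPM with at most 17.9% of the OVA UMIs in 1 cell. Igf1, a growth factor gene, stood at 105, 223, 112 and 552 CPM in the core, a ratio of 2.13 (1.72 to 2.62) under the carrier and 4.93 (4.14 to 5.90) under ribavirin.

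Microglia genes outside the rule were followed in the core, whose cells hold the genes of the rule by selection. Core cells were deeper in the OVA libraries, and the part of that depth in the ratios below was not tested. Sall1 stood at 107 and 208 CPM in the core of Vehicle and Vehicle-OVA, a ratio of 1.93 (1.56 to 2.39), and at 94.8 and 81.1 CPM under ribavirin, a ratio of 0.855 (0.654 to 1.11). C4b had ratios of 1.50 and 1.23. Tmem119 had 0.961 (0.846 to 1.09) and 0.620 (0.544 to 0.705). Of 23 measured microglia genes 0 rose and 2, Cst3 and Slc2a5, fell in the core in both pairs, with medians of -0.154 and -0.518. Cst3 had ratios of 0.416 and 0.368. P2ry12 and Fcrls, which chose the cells and are given as a description, stood at 0.769 and 0.568 and at 0.512 and 0.684 times their levels without OVA.

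**Figure D5:**
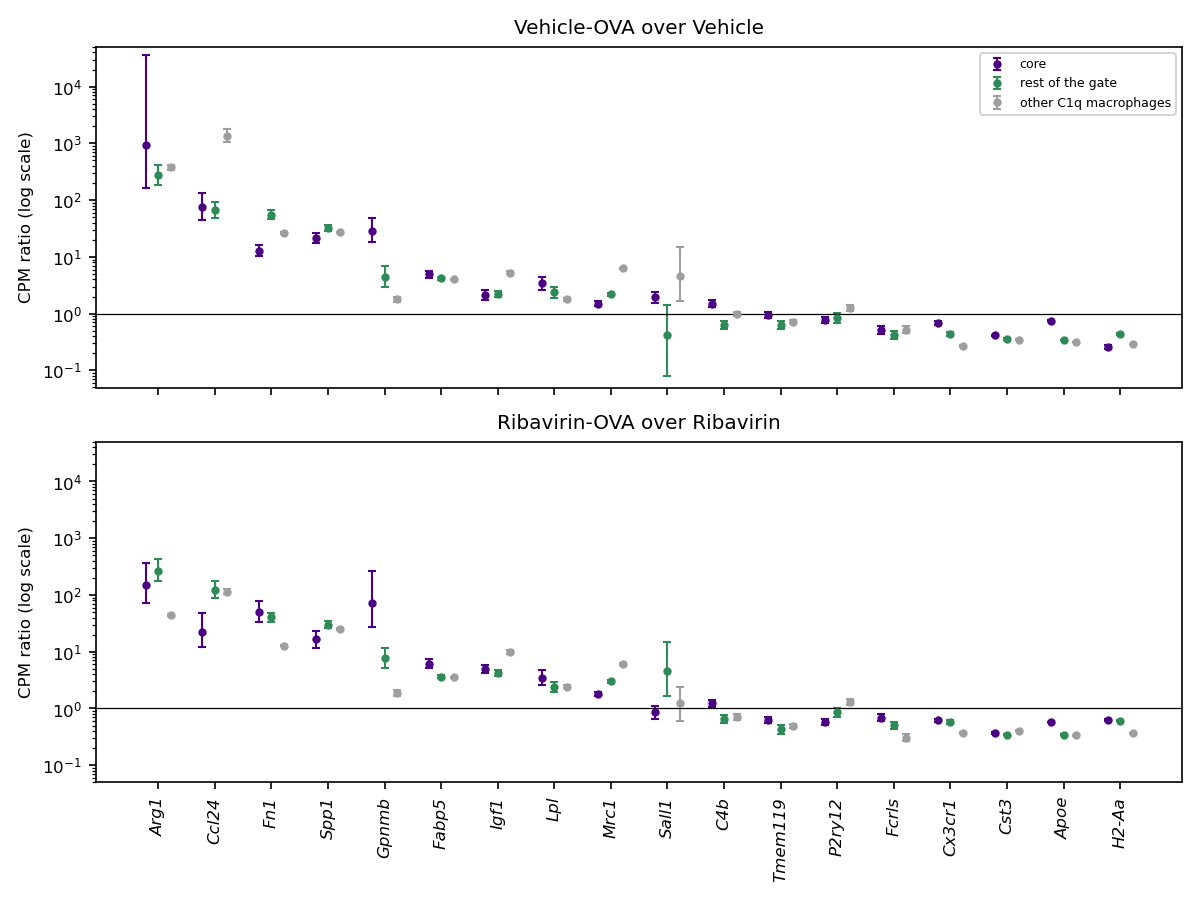
Ratio of CPM with OVA over without, on a log axis, in the core, the rest of the P2ry12 macrophages (rest of the gate) and the other C1q macrophages, for the carrier and the ribavirin pair, with 95% counting intervals. Arg1 lies far above 1 in all 3 sets of cells, Tmem119 in the core lies at 0.961 and 0.620, and Cst3 lies at 0.416 and 0.368 in the core.

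Some changes were smaller in the core than in the other C1q macrophages, and the size was read without a test. Mrc1 had ratios of 1.50 (1.34 to 1.67) and 1.79 (1.63 to 1.97) in the core against 6.30 and 6.13 in the other C1q macrophages. Without OVA it already stood at 496 and 497 CPM in the core, above the other C1q macrophages of Vehicle and Ribavirin. Cx3cr1 had 0.692 (0.644 to 0.742) and 0.615 (0.574 to 0.658) in the core against 0.271 and 0.372. Apoe had 0.757 and 0.575 in the core, 0.343 and 0.344 in the rest of the members and 0.314 and 0.334 in the other cells. Ccl12, by contrast, had 0.413 and 0.370 in the core and 0.284 and 0.313 in the other cells, and H2-Eb1 had 0.145 and 0.406 in the core against 0.165 and 0.207. Of 22 chemokines and cytokines in the core 2 rose and 5 fell (Ccl2, Ccl7, Ccl12, Cxcl10 and Cxcl13).

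Between the Ribavirin and Vehicle libraries 165 of 10881 genes (1.52%) were at least 2-fold higher and 44 (0.404%) lower, from 1 library each, with an all-gene median of -0.03 on the log2 scale. Gland and epithelial transcripts stood far apart in this pair. In members Obp1a stood at 4004 against 146 CPM, 5430402E10Rik at 1036 against 8.83 CPM, BC051076 at 121 against 5.62 CPM and Bpifa1 at 82.7 against 17.4 CPM, and the summed epithelial markers at 198 against 42.6 CPM. These were not limited to members, since 36.6% of T cells in Ribavirin held 5430402E10Rik against 1.54% in Vehicle, and their part in the count was not tested. The genes of the rule stood lower with ribavirin, Fcrls at 283 against 416 CPM, Sparc at 214 against 386 CPM and Gpr34 at 228 against 314 CPM, none of them by 2-fold. Sall1 stood at 27.0 against 42.9 CPM and Cx3cr1 at 1023 against 1486 CPM, a ratio of 0.688 (0.665 to 0.712). C4b had a ratio of 0.855 (0.792 to 0.923). The core was 0.800 times (0.646 to 0.988) as large a share of C1q macrophages in Ribavirin as in Vehicle, and 184 of 466 members there were edge cells against 190 of 625. Arg1 stood at 5.59 against 4.34 CPM, a ratio of 1.29 (0.737 to 2.26), and in the OVA libraries at 1210 against 1362 CPM, a ratio of 0.888 (0.845 to 0.934).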

How the data were processed

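CD45+ cells of mouse nasal mucosa were profiled on the 10x Genomics platform, 1 library for each of the 4 groups. The authors deposited UMI counts per gene and barcode, not normalised, made with Cell Ranger 5.0.0 on mm10 per the submitters' processing notes. Each table lists 27998 genes. The 121 symbols shared by identifiers were matched to no list.

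Cells with at least 500 UMIs, at least 200 genes and under 10% mitochondrial UMIs were kept. UMIs were summed per library and set of cells and scaled to CPM, and log2(CPM + 1) was compared for genes with at least 20 UMIs. This scale understates the change of low genes. A gene was called at 2-fold in the same direction in all 4 libraries, or in both OVA pairs. Counts have exact Poisson and shares exact binomial 95% intervals. PCR and pooling error lie outside them. Neighbours were taken over 2000 variable genes and 30 components within a library, and doublets were marked by Scrublet's procedure and kept. Named genes were the rule's genes and markers, members of the lists with the most UMIs or defining a type, and the 12 highest and 12 lowest by smallest difference with at least 50 UMIs. The members and the 26 lists were chosen with earlier results of these data known. Scripts were tested on simulated data. Clec7a and Itgam are not reported here. Python 3.11.15, numpy 2.4.6, scipy 1.17.1, pandas 2.3.3, scikit-learn 1.9.0 and scikit-image 0.26.0 were used.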

Additional observations from a re-analysis of the deposited data

Results flagged for a closer look

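In 4 genes named by the lists or the rule for named genes the difference between OVA and no OVA in members, as a log2 ratio of CPM + 1, had opposite signs under the carrier and under ribavirin. Whether the pairs differ was not tested, since each group is 1 library. Col1a1, a fibroblast collagen, stood at -1.09 under the carrier and 5.79 under ribavirin, and 1 Ribavirin-OVA cell held 354 of its 359 UMIs there, with 187 of the 708 Sparc UMIs. Hdc, the histamine-making enzyme, stood at 3.01 and -1.03, the neutrophil gene S100a9 at 2.37 and -1.65, and the airway gland gene Sec14l3 at -1.43 and 1.38.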

How the results depend on the processing

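The log2 ratio of shares, with OVA over without, was -1.83 of all cells and -1.07 of C1q macrophages under the carrier, and -0.39 and -0.57 under ribavirin. All kept a negative sign under every alternative run. Under the carrier, thinning to 2000 UMIs gave -2.37 and -1.50, and under ribavirin -0.49 and -0.61 with intervals that span 0. Under ribavirin, a mitochondrial limit of 5% gave -0.88 of C1q macrophages, marker sums of at least 3 gave -0.12 and -0.30, and sums of at least 5 gave -0.0041 and -0.18, with intervals that span 0. The 296 genes apart between members and other C1q macrophages became 614 with sums of at least 5, 490 in cells of 5000 to 15000 UMIs, 151 with a pseudocount of 5 CPM and 190 without comparison cells holding Arg1, Ccl24 or Retnla, of which 102 higher and 44 lower were among the 296. The 528 genes apart with OVA became 264 with the pseudocount of 5 CPM. Of the single genes over all alternatives, 764 values kept their call, 36 fell short of 2-fold, 7 uncalled values moved and 7 changed sign. These 7 were Adamts1 (-0.34) at the 5% mitochondrial limit, Klk14 (0.016), Sftpd (0.27) and Wfdc18 (0.36) in cells of 5000 to 15000 UMIs, and Gm15056 (0.41), Mmp12 (0.16) and Sdc1 (0.16) without the Arg1, Ccl24 or Retnla cells. The cause was not tested. Leaving out cells with collagen UMIs, an alternative chosen after seeing the data, gave 302 and 521 genes. The 120 and 155 members of the OVA libraries limit what can be read from their core.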
